A study of Homo sapiens with 12 samples.

Results

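The 10 genes followed here belong to the Wnt pathway and were read in ECC1, a human endometrial cancer line, as parental cells and as cells labelled MTDH knockout. They were picked by symbol and are 10 of the 34595 entries of the expression table. WNT7A, WNT7B and WNT5A are ligands. AXIN2, NKD1, NKD2, DKK1, LGR5, RNF43 and TCF7 are components, targets or antagonists of the pathway. RNA was hybridized to 12 Illumina arrays, 3 for each of 4 groups. The groups were MTDH knockout cells given 10 nM estradiol, knockout cells without estradiol, parental cells given 10 nM estradiol, and parental cells without it. Estradiol was present for 24 h, after 24 h in medium with charcoal-stripped serum, which has little steroid hormone. The labels name a single knockout line and not how it was made, so any other difference between the lines cannot be told apart from the loss of MTDH. Nothing in the labels ties replicates to separate cultures, so p-values cover the spread among these arrays, part of which may be technical.

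Wnt ligands are secreted, lipid-modified proteins that bind Frizzled receptors together with the co-receptors LRP5 or LRP6. In the canonical branch this blocks the destruction complex, built on AXIN and APC proteins, so that beta-catenin escapes degradation and acts in the nucleus with TCF/LEF factors. Several target genes, AXIN2, NKD1 and RNF43 among them, encode inhibitors of the pathway. WNT7A is known as a ligand of the uterine epithelium, and in mice it is needed for the female reproductive tract to form.

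Some arrays went against their labels, which touches every comparison with estradiol. MTDH, the gene named in the knockout label, read 8.57, 8.53 and 8.59 (log2) in untreated knockout replicates 1 to 3, against 11.43, 11.18 and 10.78 in untreated parental replicates 1 to 3. In those knockout arrays MTDH still stood at percentiles 83.5 to 83.8 of all genes, and the source of that signal was not tested. With estradiol MTDH read 10.94, 8.49 and 8.49 in knockout replicates 1 to 3, against 10.83, 10.96 and 8.97 in parental replicates 1 to 3. The library labelled knockout estradiol 1 thus read MTDH like a parental array, and its closest profile over all genes was parental estradiol 2. The library labelled parental estradiol 3 read MTDH near the knockout level, and its closest profile was knockout estradiol 3. Labels were kept, and each result is given with all 12 arrays and with 10, without these 2 libraries, so that each estradiol group then held 2 arrays. These 2 labels may have been exchanged, which the sources used here do not settle, and if so each 12-array estradiol value mixes the lines. The 2 libraries were left out for their MTDH level and closest profile. All 10-array p-values, and the separation of the lines in estradiol over 10 arrays, depend on that choice. Epithelial markers were above the median of all values on every array in 7 of 7 cases. Among these KRT18 read 6.83 to 6.98, just above that median of 6.82. The same held for 2 of 6 fibroblast markers, COL1A1 (7.34 to 8.15) and COL3A1 (6.86 to 7.33). It also held for 1 of 4 endothelial markers, VWF (7.10 to 7.76), and for 0 of 4 leukocyte markers. PTPRC, CD3E, CDH5, TEK, LUM and PDGFRB were above it on none. The part of other cell types in the results was not tested.

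Only some of the 10 genes read well above the low end of the table. Genes were tested if they passed 6.82, the median over the whole table, on 3 or more arrays, which 4 of the 10 did. WNT7A, NKD2 and AXIN2 were above it on 12 of 12 arrays and RNF43 on 4. The other 6 genes were above it on 0 to 2 arrays, so counts of calls below refer to 4 genes. Levels of different genes were not set against each other, since probes differ in brightness. Whether groups overlapped is given as a description. The share of all genes whose groups did not overlap is not given here, and groups held only 2 or 3 arrays.

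**Figure D1:**
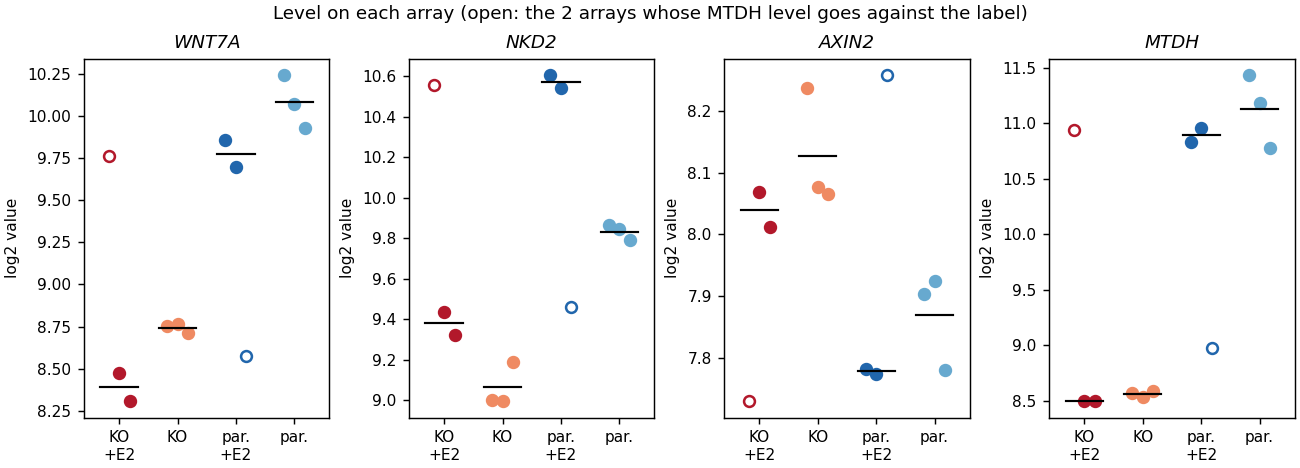
Log2 value (vertical axis, own scale in each panel) of WNT7A, NKD2, AXIN2 and MTDH on each of the 12 arrays. Columns are knockout with estradiol, untreated knockout, parental with estradiol and untreated parental, points are arrays, open circles are knockout estradiol 1 and parental estradiol 3, and lines are means of the remaining arrays. Apart from the open circles, WNT7A and NKD2 lie lower and AXIN2 higher in knockout columns.

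The promoters of WNT7A and NKD2 are shown because these genes had differences both between lines and with estradiol over 10 arrays. RefSeq windows of build GRCh38.p14, 300 bases from 250 before to 50 after a start, were found for 6 of the 10 genes (9 windows). Capitals mark GGTCA or its complement TGACC, the arm of the palindromic estrogen response element. The WNT7A window lies at chr3:13880022-13880321 on the minus strand, and the NKD2 window at chr5:1008552-1008851 on the plus strand.
WNT7A: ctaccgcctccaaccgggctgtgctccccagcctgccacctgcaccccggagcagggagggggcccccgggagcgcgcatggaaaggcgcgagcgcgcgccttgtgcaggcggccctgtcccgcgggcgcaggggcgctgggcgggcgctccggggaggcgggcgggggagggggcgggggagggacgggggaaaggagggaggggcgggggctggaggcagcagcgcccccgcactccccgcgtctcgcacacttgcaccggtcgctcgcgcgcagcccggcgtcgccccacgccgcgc
NKD2: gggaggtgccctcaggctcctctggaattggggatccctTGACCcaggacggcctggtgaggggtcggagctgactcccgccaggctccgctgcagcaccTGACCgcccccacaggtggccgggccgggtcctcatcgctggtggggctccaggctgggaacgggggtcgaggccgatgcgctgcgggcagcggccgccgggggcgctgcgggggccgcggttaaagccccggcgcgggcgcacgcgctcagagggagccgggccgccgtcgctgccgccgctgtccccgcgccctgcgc
The NKD2 window held 2 such arms and the WNT7A window 0. Searched on both strands, the arm was in 37.4% of 35116 windows of all genes and in 2 of these 9, NKD2 and 1 window of TCF7. The full palindrome, which contains the arm, was in 0.057% of all windows and in 0 of the 9. The core bound by TCF/LEF factors, searched as CTTTGAA with CTTTGAT and as CTTTGTA with CTTTGTT, was in 13.8% of all windows and in 2 of these 9, DKK1 and 1 window of TCF7. These matches describe letters in a short window and are not shown to be binding sites.

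WNT7A, the ligand, was lower in the knockout line. In untreated cells it read 8.75, 8.76 and 8.71 in knockout replicates 1 to 3, against 10.24, 10.07 and 9.93 in parental replicates 1 to 3. The groups lay far apart, with every knockout array below every parental array. The log2 difference was -1.34 ± 0.34 (SE, n = 3 per group, limma adjusted p = 0.0268), 2.52-fold lower in knockout cells. That SE is pooled over all 12 arrays, and over 10 arrays it was 0.081 for the same difference (adjusted p = 3.8e-09). With 12 arrays the call was lost after quantile normalization (-1.23, adjusted p = 0.0548) and with a prior set to be trended and robust (adjusted p = 0.0913). It was also lost when knockout untreated 1 (adjusted p = 0.065), 2 (0.0906) or 3 (0.0852) was left out, or untreated parental 1 (0.0885) or 2 (0.0885), while leaving out any of the 10 arrays in turn kept it in 10 of 10 fits.

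In estradiol WNT7A read 9.76, 8.48 and 8.31 in knockout replicates 1 to 3, against 9.86, 9.70 and 8.58 in parental replicates 1 to 3. As labelled the groups overlapped, and the difference was -0.53 ± 0.34 (n = 3 per group, limma adjusted p = 0.907). Over 10 arrays they did not overlap, and WNT7A was lower in knockout cells, with a difference of -1.38 ± 0.099 (n = 2 per group, limma adjusted p = 5.3e-08) and a 95% interval of -1.59 to -1.17. The interval in untreated cells was -1.51 to -1.17, from other arrays.

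NKD2, a cytoplasmic inhibitor that binds Dishevelled, was also lower in knockout cells over 10 arrays. Untreated, it read 9.002, 8.99 and 9.19 in knockout replicates 1 to 3, against 9.86, 9.84 and 9.79 in parental replicates 1 to 3. The groups did not overlap, yet the difference of -0.77 ± 0.30 missed the threshold over 12 arrays (n = 3 per group, limma adjusted p = 0.121). It passed over 10 arrays (SE 0.070, limma adjusted p = 6.7e-07) and with the 6 arrays compared alone (limma adjusted p = 2.2e-05). Over 12 arrays it also passed without parental estradiol 3 (adjusted p = 0.0364) or knockout estradiol 1 (0.0263).

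In estradiol NKD2 read 10.56, 9.43 and 9.32 in knockout replicates 1 to 3, against 10.60, 10.54 and 9.46 in parental replicates 1 to 3. As labelled these groups overlapped, with a difference of -0.43 ± 0.30 (limma adjusted p = 0.909). Over 10 arrays they did not, and NKD2 was 2.29-fold lower in knockout cells (-1.19 ± 0.085, n = 2 per group, limma adjusted p = 5.1e-08).

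AXIN2, a scaffold of the destruction complex and a widely used canonical target, lay on the other side. Untreated, it read 8.24, 8.08 and 8.07 in knockout replicates 1 to 3, against 7.90, 7.92 and 7.78 in parental replicates 1 to 3. Every knockout array was above every parental array. The difference was 0.26 ± 0.12 over 12 arrays (limma adjusted p = 0.201) and passed over 10, with an SE of 0.068 (limma adjusted p = 0.0134). That call was lost when knockout untreated 1 was also left out (0.20, limma adjusted p = 0.0777). In estradiol AXIN2 read 7.73, 8.07 and 8.01 in knockout replicates 1 to 3, against 7.78, 7.77 and 8.26 in parental replicates 1 to 3. As labelled the groups overlapped, with a 95% interval of -0.26 to 0.26 (limma adjusted p = 0.998). Over 10 arrays the difference was 0.26 ± 0.084 and missed the threshold (limma adjusted p = 0.0583), passing with quantile normalization (0.26, adjusted p = 0.0176).

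RNF43, an E3 ligase that removes Frizzled receptors from the cell surface, lay near the median of the table. Untreated, it read 6.68, 6.68 and 6.75 in knockout replicates 1 to 3, against 6.84, 6.73 and 6.86 in parental replicates 1 to 3 (-0.10 ± 0.085, limma adjusted p = 0.512). In estradiol it read 6.92, 6.68 and 6.70 in knockout replicates 1 to 3, against 6.79, 6.95 and 6.63 in parental replicates 1 to 3. That difference was -0.025 ± 0.085 over 12 arrays (limma adjusted p = 0.976) and -0.18 ± 0.082 over 10 (limma adjusted p = 0.219), and RNF43 was called in none of the 5 comparisons over 12 or 10 arrays. Over the 10 arrays it passed the filter through parental arrays alone, so its differences between the lines there carry little weight.

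Between the untreated lines, 1 of the 4 tested genes was called over 12 arrays, where 10.9% of 19670 genes were, and 3 over 10 arrays, where 20.2% of 19102 were. Between the lines in estradiol, 0 of the 4 were called by limma over 12 arrays, where 0% of all genes were, and 0 of the 4 and 1064 of all genes had an unadjusted p under 0.05. Over 10 arrays 2 of the 4 were called there, where 10.1% of all genes were.

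**Figure D2:**
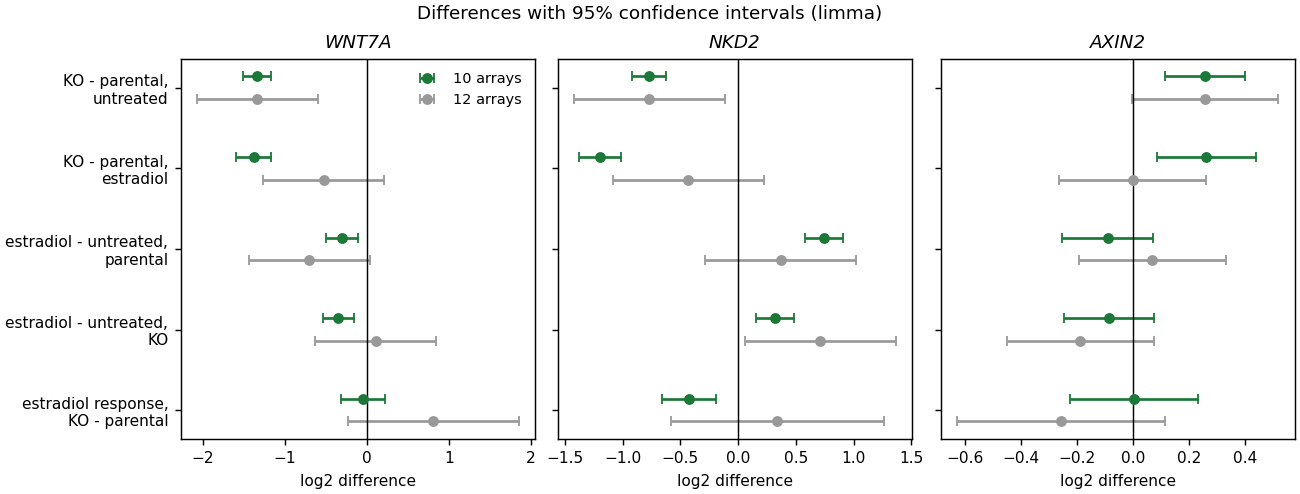
Log2 difference (horizontal axis) with its 95% confidence interval from limma for WNT7A, NKD2 and AXIN2 in each of 5 comparisons, over 10 arrays (green) and 12 arrays (grey). The 10-array intervals of WNT7A and NKD2 lie below 0 in both comparisons of the lines, and those of NKD2 above 0 in both estradiol comparisons.

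NKD2 was higher with estradiol in both lines over 10 arrays. In knockout cells it read 9.43 and 9.32 with estradiol in replicates 2 and 3, against 9.002, 8.99 and 9.19 without, and in replicate 1 with estradiol it read 10.56. It rose by 0.32 ± 0.078 (n = 2 against 3, limma adjusted p = 0.0199), where the difference over 12 arrays was 0.71 ± 0.30 (limma adjusted p = 0.256). In parental cells it read 10.60 and 10.54 with estradiol in replicates 1 and 2, against 9.86, 9.84 and 9.79 without, and in replicate 3 with estradiol it read 9.46. It rose by 0.74 ± 0.078 (limma adjusted p = 7.9e-06, 1.67-fold), where the difference over 12 arrays was 0.37 ± 0.30 (limma adjusted p = 0.555). Leaving out 1 more array gave rises of 0.26 to 0.38 in knockout and 0.71 to 0.77 in parental cells. Some of these fits rested on 1 array with estradiol, and for those only the size is given. Among the fits that left out an untreated array, the rise in knockout cells was not called without knockout untreated 1 (limma adjusted p = 0.0788) or 2 (0.0878). In parental cells it stayed called whichever untreated array was left out (highest limma adjusted p = 7.3e-05).

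Whether the response of NKD2 differed between the lines depended on the normalization. Knockout response minus parental response was -0.43 ± 0.11 over 10 arrays (95% interval -0.66 to -0.19, limma adjusted p = 0.0854). With quantile normalization of the 10 arrays it was -0.52 and passed (limma adjusted p = 0.0158), while over 12 arrays it was 0.34 ± 0.43 (limma adjusted p = 0.839), with the opposite sign. Over 10 arrays the means of NKD2 ran down from parental with estradiol (10.57) through untreated parental (9.83) and knockout with estradiol (9.38) to untreated knockout (9.06), with no overlap between neighbours.

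WNT7A was lower with estradiol in both lines over 10 arrays. In knockout cells it read 8.48 and 8.31 with estradiol in replicates 2 and 3, against 8.75, 8.76 and 8.71 without, a difference of -0.35 ± 0.090 (limma adjusted p = 0.0262). In parental cells it read 9.86 and 9.70 with estradiol in replicates 1 and 2, against 10.24, 10.07 and 9.93 without, a difference of -0.30 ± 0.090 (limma adjusted p = 0.0402). In both lines the values with and without estradiol did not overlap. Over 12 arrays the differences were 0.11 ± 0.34 in knockout cells (limma adjusted p = 0.935) and -0.70 ± 0.34 in parental cells (limma adjusted p = 0.266). With quantile normalization of the 10 arrays the parental difference was -0.16 and no longer called (limma adjusted p = 0.21). Leaving out 1 more array gave -0.44 to -0.27 in knockout and -0.38 to -0.22 in parental cells. Some of these fits rested on 1 array with estradiol, and for those only the size is given. Among the fits that left out an untreated array, the knockout call was lost without knockout untreated 1 (limma adjusted p = 0.0694), 2 (0.0879) or 3 (0.0611). The parental call was lost without parental untreated 1 (limma adjusted p = 0.136) or 2 (0.095). It was also lost without knockout untreated 1 (0.0503), 2 (0.0608) or 3 (0.0554).

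The means of WNT7A ran down from untreated parental (10.08) through parental with estradiol (9.78) and untreated knockout (8.74) to knockout with estradiol (8.39), with no overlap between neighbours over 10 arrays. Knockout response minus parental response of WNT7A was -0.048 (95% interval -0.32 to 0.22, limma adjusted p = 0.923). No response of AXIN2 to estradiol was detected over 10 arrays, with 95% intervals of -0.25 to 0.076 in knockout cells (limma adjusted p = 0.633) and -0.25 to 0.071 in parental cells (limma adjusted p = 0.509). Its means were 8.04 with and 8.13 without estradiol in knockout cells, and 7.78 with and 7.87 without in parental cells. Over 10 arrays its values with and without estradiol overlapped within each line, and those of the lines did not overlap each other. Over 12 arrays the differences were -0.19 ± 0.12 in knockout cells (limma adjusted p = 0.509) and 0.069 ± 0.12 in parental cells (limma adjusted p = 0.823).

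With estradiol against untreated, 0 of the 4 genes were called by limma over 12 arrays in knockout cells, where 3.88% of all genes were, and 0 in parental cells, where 7% were. Of the 4, 1 in knockout and 0 in parental cells had an unadjusted p under 0.05. Of all 19670 genes tested, 3226 in knockout and 4116 in parental cells had one. Over 10 arrays 2 were called in knockout cells, where 7% of all genes were, and 2 in parental cells, where 11% were. For the difference of the responses limma called 0 of the 4 over 12 arrays (0.00508% of all genes) and 0 over 10 (0.764%). At an unadjusted p under 0.05 were 0 and 1 of the 4, with 2069 of 19670 and 2647 of 19102 genes. Over 10 arrays the calls on all genes for that difference were 0.492% higher and 0.272% lower, and with quantile normalization the split turned to 0.426% and 0.81%.

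**Figure D3:**
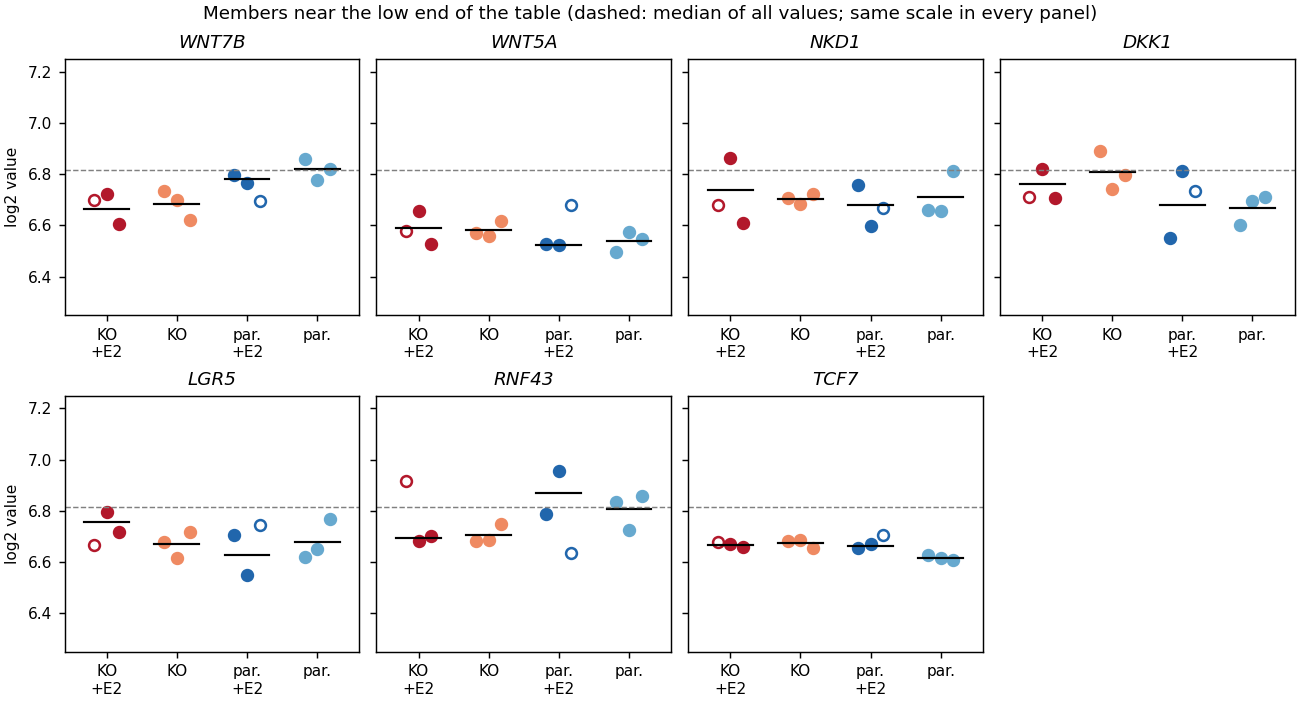
Log2 value (vertical axis, same scale in every panel) of WNT7B, WNT5A, NKD1, DKK1, LGR5, RNF43 and TCF7 on each of the 12 arrays, with groups and symbols as in the plot of WNT7A, NKD2, AXIN2 and MTDH. The dashed line is the median of the table, 6.82, and most points lie below it.

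The remaining genes stayed in a narrow band at the low end. The ligand WNT7B ran from 6.61 to 6.86 over the 12 arrays, and WNT5A, a ligand best known for signalling without beta-catenin, from 6.49 to 6.68. NKD1, the paralog of NKD2, ran from 6.60 to 6.87. DKK1, a secreted inhibitor that binds LRP5 and LRP6, ran from 6.55 to 6.89. LGR5, a receptor for R-spondins, ran from 6.55 to 6.79, and TCF7, a nuclear partner of beta-catenin, from 6.61 to 6.71. The lowest value of any gene was between 6.298 and 6.417 on each array, so the band lies close to the bottom of the table and does not show whether these genes were expressed.

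With the filter left out, WNT7B had the smallest adjusted p of these 6 genes, between the untreated lines. It read 6.73, 6.70 and 6.62 in knockout replicates 1 to 3, against 6.86, 6.78 and 6.82 in parental replicates 1 to 3. The groups did not overlap, but the difference missed the threshold (limma adjusted p = 0.17). DKK1 read 6.89, 6.74 and 6.80 in knockout replicates 1 to 3, against 6.60, 6.70 and 6.71 in parental replicates 1 to 3 (limma adjusted p = 0.31). None of these 6 genes was called in the 5 comparisons without the filter, over 12 or 10 arrays.

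The wider pathway was read in 105 listed genes of 8 roles, all matched in the table. Between the untreated lines over 12 arrays there were 8 higher and 4 lower of 72 (over all genes 2.31% and 8.63%), and 12 higher and 1 lower of 72 with quantile normalization (over all genes 4.5% and 3.58%). The median difference was 0.036 in the list and -0.029 over all genes tested. Over 10 arrays there were 14 higher and 9 lower of 69 (over all genes 6.16% and 14%), and 16 higher and 5 lower of 68 with quantile normalization (over all genes 10.4% and 8.95%). Between the lines in estradiol limma called 0 of 72 over 12 arrays, where it called 0% of all genes. At an unadjusted p under 0.05 were 4 of the 72, and 1064 of all 19670 genes tested. Over 10 arrays there were 9 higher and 4 lower of 69 (over all genes 5.1% and 4.97%), and 11 higher and 7 lower of 68 with quantile normalization (over all genes 8.02% and 7.14%). Medians there were 0.040 in the list and 0.018 over all genes.

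**Figure D4:**
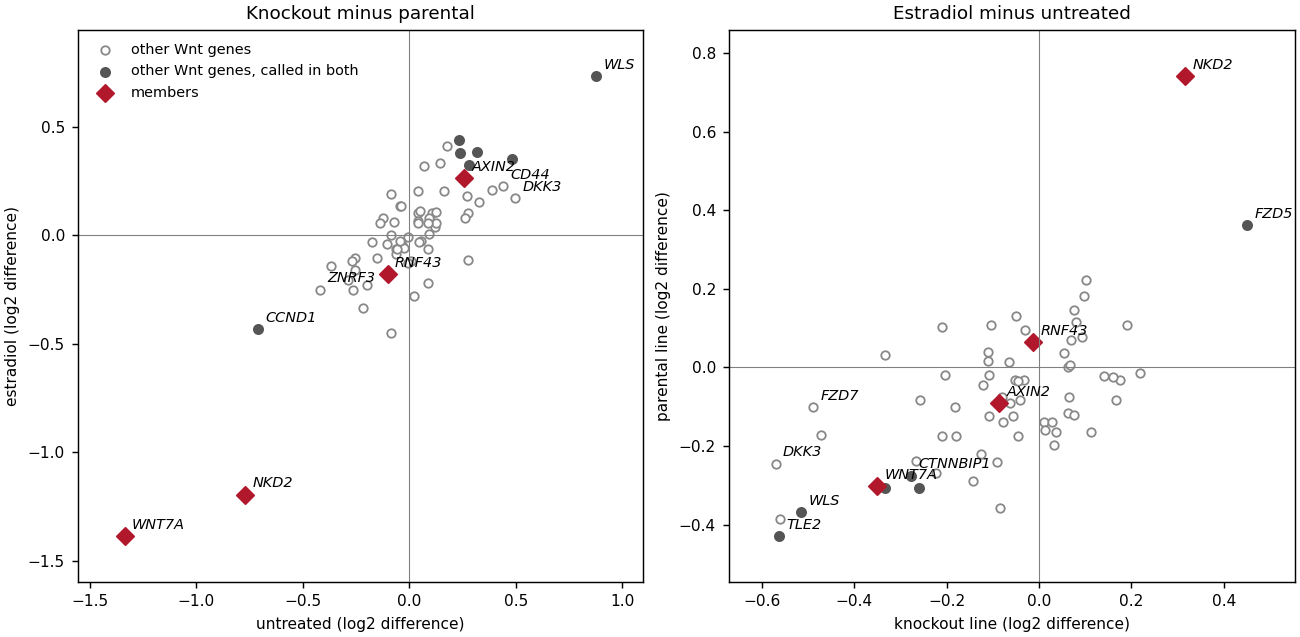
Log2 differences over 10 arrays of the 69 tested Wnt genes, as knockout minus parental in untreated cells (horizontal) against estradiol (vertical) on the left, and as estradiol minus untreated in knockout (horizontal) against parental cells (vertical) on the right. Diamonds are WNT7A, NKD2, AXIN2 and RNF43, and filled circles are other genes called in both comparisons of a panel. WNT7A at -1.38 and NKD2 at -1.19 on the vertical axis of the left panel lie opposite WLS at 0.73.

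Of 19 ligands 8 were tested, and over 12 arrays 0 were higher and 1 lower, WNT7A, in untreated knockout cells (over all genes 2.31% and 8.63%). WLS, which carries Wnt ligands to the cell surface and stands in the table under its older symbol GPR177, differed between the lines with the opposite sign. Untreated, it read 9.91, 9.81 and 9.78 in knockout replicates 1 to 3, against 9.19, 8.97 and 8.72 in parental replicates 1 to 3 (0.88 ± 0.26, limma adjusted p = 0.0467, and 3.8e-06 over 10 arrays). In estradiol it read 8.51, 9.38 and 9.26 in knockout replicates 1 to 3, against 8.55, 8.62 and 9.64 in parental replicates 1 to 3. Over 10 arrays WLS was higher in knockout cells with estradiol (0.73 ± 0.11, limma adjusted p = 0.000353, and 0.11 ± 0.26, 0.964 over 12 arrays). With estradiol against untreated it fell in knockout cells over 10 arrays (-0.51 ± 0.10, limma adjusted p = 0.00548, and -0.78 ± 0.26, 0.124 over 12 arrays) and in parental cells (-0.37 ± 0.10, limma adjusted p = 0.0301, or 0.123 with quantile normalization, and -0.018 ± 0.26, 0.984 over 12 arrays).

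Of 16 receptors and co-receptors tested, 1 was higher and 0 lower between the untreated lines over 12 arrays (over all genes 2.31% and 8.63%). In estradiol over 10 arrays LRP5 was lower in knockout cells (-0.45 ± 0.096, limma adjusted p = 0.00527, and -0.25 ± 0.11, 0.895 over 12 arrays). ROR2, a receptor for WNT5A, was called higher there (0.41 ± 0.081, limma adjusted p = 0.0028, and 0.14 ± 0.12, 0.922 over 12 arrays), with 7.06 and 6.98 in knockout replicates 2 and 3, against 6.55 and 6.67 in parental replicates 1 and 2. Those parental values lie in the low band of the untested genes, and over the 10 arrays ROR2 passed the filter through knockout arrays alone, so its call and the size of its difference carry little weight. FZD5 rose with estradiol over 10 arrays in knockout cells (0.45 ± 0.10, limma adjusted p = 0.0129, and 0.42 ± 0.099, 0.0303 over 12 arrays) and in parental cells (0.36 ± 0.10, limma adjusted p = 0.0311, and 0.42 ± 0.099, 0.0226 over 12 arrays). FZD7 (-0.47 ± 0.079, limma adjusted p = 0.00484, and -0.49 ± 0.090, 0.00261 over 10 arrays) and FZD2 (-0.60 ± 0.13, limma adjusted p = 0.0228, and -0.56 ± 0.13, 0.0143 over 10 arrays) fell with estradiol in knockout cells over 12 arrays. FZD4 fell in parental cells over 10 arrays (-0.36 ± 0.094, limma adjusted p = 0.0221, or 0.0791 with quantile normalization, and -0.23 ± 0.12, 0.307 over 12 arrays).

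ZNRF3, an E3 ligase that acts on Frizzled receptors as RNF43 does, was lower in untreated knockout cells. It read 8.62, 8.58 and 8.59 in knockout replicates 1 to 3, against 9.17, 9.01 and 8.86 in parental replicates 1 to 3 (-0.42 ± 0.091, limma adjusted p = 0.0135, or 0.0549 with quantile normalization, and -0.42 ± 0.080, 0.00125 over 10 arrays). DKK3, a divergent relative of DKK1, was higher in untreated knockout cells over 12 arrays (0.50 ± 0.11, limma adjusted p = 0.0165, and 0.50 ± 0.081, 0.00035 over 10 arrays) and fell with estradiol there (-0.64 ± 0.11, limma adjusted p = 0.00634, and -0.57 ± 0.091, 0.000835 over 10 arrays).

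Of 16 cytoplasmic components and inhibitors tested, limma called 0 between the untreated lines over 12 arrays, where it called 10.9% of all genes. At an unadjusted p under 0.05 were 4 of these 16, and 5153 of all 19670 genes tested. Over 10 arrays 2 were higher and 2 lower of 15, AXIN2 and NKD2 among them (over all genes 6.16% and 14%). The kinase GSK3B was higher in knockout cells with estradiol over 10 arrays (0.38 ± 0.079, limma adjusted p = 0.00431, and 0.12 ± 0.12, 0.933 over 12 arrays). Untreated, it also read higher, with 9.21, 9.06 and 9.13 in knockout replicates 1 to 3, against 8.76, 8.86 and 8.82 in parental replicates 1 to 3. CTNNBIP1, which keeps beta-catenin from TCF factors, fell with estradiol in knockout cells over 12 arrays (-0.32 ± 0.064, limma adjusted p = 0.0151, and -0.28 ± 0.069, 0.0227 over 10 arrays), as did DVL3, a Dishevelled protein (-0.35 ± 0.081, limma adjusted p = 0.0287, and -0.33 ± 0.089, 0.0319 over 10 arrays). CTNNBIP1 also fell in parental cells over 10 arrays (-0.28 ± 0.069, limma adjusted p = 0.0169, or 0.0752 with quantile normalization, and -0.23 ± 0.064, 0.051 over 12 arrays).

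Of 10 nuclear factors tested, 2 were higher and 0 lower in untreated knockout cells over 12 arrays (over all genes 2.31% and 8.63%). TLE2, a corepressor of TCF factors, was one of them (0.48 ± 0.10, limma adjusted p = 0.0133, and 0.48 ± 0.073, 0.000171 over 10 arrays), and it fell with estradiol in knockout cells (-0.65 ± 0.10, limma adjusted p = 0.00363, and -0.56 ± 0.082, 0.000375 over 10 arrays). Over 10 arrays TLE2 fell in parental cells too (-0.43 ± 0.082, limma adjusted p = 0.00271, and -0.31 ± 0.10, 0.0909 over 12 arrays). Its relative TLE1 fell with estradiol in parental cells over 12 arrays (-0.26 ± 0.066, limma adjusted p = 0.0336, or 0.15 with quantile normalization, and -0.31 ± 0.074, 0.0129 over 10 arrays).

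Of 12 other known targets tested, 3 were higher and 2 lower in untreated knockout cells over 12 arrays (over all genes 2.31% and 8.63%). CCND1, which encodes cyclin D1, read 12.37, 12.23 and 12.25 in knockout replicates 1 to 3, against 12.93, 13.04 and 13.01 in parental replicates 1 to 3 (-0.71 ± 0.13, limma adjusted p = 0.00781, and -0.71 ± 0.066, 8.7e-07 over 10 arrays). CD44, an adhesion receptor (0.44 ± 0.099, limma adjusted p = 0.0153, and 0.44 ± 0.072, 0.000328 over 10 arrays), and TNFRSF19, a receptor of the TNF family (0.39 ± 0.082, limma adjusted p = 0.0124, and 0.39 ± 0.065, 0.000418 over 10 arrays), were higher. APCDD1, a membrane inhibitor of Wnt signalling, was higher in knockout cells with estradiol over 10 arrays (0.44 ± 0.075, limma adjusted p = 0.000909, and 0.16 ± 0.12, 0.91 over 12 arrays), against parental values of 6.82 and 6.76 close to the median of the table. Untreated, APCDD1 read 7.09, 7.06 and 7.02 in knockout replicates 1 to 3, against 6.87, 6.77 and 6.83 in parental replicates 1 to 3. With estradiol over 10 arrays CCND1 was lower in knockout cells too (-0.43 ± 0.080, limma adjusted p = 0.0018). As labelled it read 12.91, 12.45 and 12.35 there in knockout replicates 1 to 3, against 12.82, 12.84 and 12.45 in parental replicates 1 to 3.

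With estradiol against untreated, the wider list in knockout cells held 1 higher and 6 lower of 72 (over all genes 1.18% and 2.69%), and 2 higher and 6 lower of 72 with quantile normalization (over all genes 2.41% and 3.06%) over 12 arrays. Over 10 arrays there were 2 higher and 12 lower of 69 (over all genes 2.61% and 4.39%), and 4 higher and 11 lower of 68 with quantile normalization (over all genes 4.75% and 5.31%). In parental cells the direction turned with the normalization, with 1 higher and 1 lower of 72 (over all genes 1.12% and 5.87%), and 4 higher and 0 lower of 72 with quantile normalization (over all genes 2.12% and 2.41%) over 12 arrays. Over 10 arrays there were 2 higher and 8 lower of 69 (over all genes 1.64% and 9.41%), and 5 higher and 1 lower of 68 with quantile normalization (over all genes 3.56% and 3.85%). Among the calls on all genes in parental cells, 14.8% were rises over 10 arrays and 48% with quantile normalization as well.

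Without the 2 libraries, the comparison of the lines in estradiol and that in untreated cells share no array, nor do the estradiol responses of the lines. They are still not independent, since they come from the same fit with a shared estimate of the spread. The 2 libraries were left out for their MTDH level and closest profile, and that choice favours agreement between the comparisons of the lines. Of 13 Wnt genes called in estradiol and 23 in untreated cells, 9 were called in both in the same direction, 69.2% and 39.1% of each list. Over all genes those shares were 66.2% and 33%. Of 14 Wnt genes called for estradiol in knockout and 10 in parental cells, 8 were shared in direction, 57.1% and 80% of each list, against 46.1% and 29.2% over all genes. These overlaps hold without added normalization and were not counted with quantile normalization. With it the parental calls turned to 5 higher and 1 lower of 68, while those in knockout cells were 4 higher and 11 lower.

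By Pearson's correlation over the 12 arrays, WNT7A was most like AGR2, a protein disulfide isomerase of secretory cells (0.994), SLIT2, a secreted guidance protein (0.993), and MAL, a protein of apical membrane sorting (0.991). NKD2 was most like EVL, an actin regulator (0.990), SPRY2, an inhibitor of receptor tyrosine kinase signalling (0.989), and MYO18A, a myosin (0.987). The 12 points share lines and treatments, and these values are a description.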

How the data were processed

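Total RNA was hybridized by Illumina's direct assay with biotin label, per the labels' protocols. The deposited table holds log2 values, 1 per symbol and array (34595 entries, 0 missing). Background correction, normalization and the joining of probes are not given in the sources used here, and no normalization was added in the chosen setting. The number of arrays limits the precision.

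Entries above the table's median on 3 or more arrays were tested (19670 over 12 arrays, 19102 over 10, with the median of those arrays). limma version 3.58.1 in R version 4.3.3 fitted 1 mean per group (8 or 6 residual degrees of freedom) with default moderation. Tests were two-sided, with Benjamini-Hochberg adjustment across every gene fitted, and calls at 0.05.

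The members, lists and the 2 arrays left out were chosen with earlier results of these data known. Other called Wnt genes were named by smallest p, at most 6 per comparison over 12 and over 10 arrays, and so were WLS between untreated lines over 12 arrays and the 3 genes most correlated with a member whose group means span over 1 log2 unit. Fits were tested on simulated data. Alternatives changed filter, normalization, prior, array weights, arrays, threshold and replicate block, and leaving out each of the 10 arrays was added after seeing the data.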

Additional observations from a re-analysis of the deposited data

Results flagged for a closer look

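The estradiol response of NKD2 differed between the lines, by the test of the difference itself, when the 10 arrays were quantile normalized. Knockout response minus parental response was -0.52 (log2, limma adjusted p = 0.0158). Without that normalization it was -0.43 (limma adjusted p = 0.0854). Leaving out 1 more array, also without that normalization, gave -0.48 to -0.36, and some of these fits rested on 1 array with estradiol. In them the difference was not called whichever untreated array was left out (limma adjusted p = 0.0705 to 0.212). No such fit is given here with quantile normalization, so they are no check of the call made with it. Over the 12 arrays the difference was 0.34 (limma adjusted p = 0.839).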

How the results depend on the processing

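Which of the 4 tested genes were called changed without the 2 arrays whose MTDH level went against the label. With 12 arrays 1 was called between untreated lines (10.9% of all genes). In the other 4 comparisons 0 were called, with 0% of all genes between lines in estradiol, 3.88% for estradiol in knockout cells, 7% in parental cells and 0.00508% for the difference of responses. Without the 2 arrays the counts were 3 between untreated lines, 2 between lines in estradiol, 2 for estradiol in knockout and 2 in parental cells. Shares over all genes in that order were 20.2%, 10.1%, 7% and 11%. With quantile normalization as well the counts were 3, 3, 2 and 1, and 1 for the difference of responses. Shares of all genes higher and lower were then 10.4% and 8.95% between untreated lines and 8.02% and 7.14% between lines in estradiol. They were 4.75% and 5.31% for estradiol in knockout cells, 3.56% and 3.85% in parental cells, and 0.426% and 0.81% for the difference. Between untreated lines 12 arrays gave 0 with quantile normalization, 0 with the trended prior, 0 at a threshold of 0.01, 2 with array weights and 3 with the compared arrays alone. Shares of all genes higher and lower were 4.5% and 3.58% with quantile normalization and 2.18% and 7.38% with the trended prior. Counts over all genes for the other settings follow below. Leaving out single arrays gave 0 to 2 between untreated lines and 0 in the other 4 comparisons.

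Signs turned as follows, and the cause was not tested. Without the 2 arrays, with quantile normalization as well in brackets, WNT7A for estradiol in knockout cells was -0.35 (-0.31), AXIN2 between lines in estradiol 0.26 (0.26), and RNF43 for estradiol -0.012 (-0.0070) in knockout and 0.065 (0.084) in parental cells. AXIN2 for estradiol in parental cells was -0.091. Differences of responses turned to -0.048 (-0.15) for WNT7A, -0.43 (-0.52) for NKD2, -0.077 (-0.091) for RNF43 and 0.0048 for AXIN2. Over 12 arrays AXIN2 between lines in estradiol was 0.036 with quantile normalization and 0.11 with array weights, which gave -0.052 for AXIN2 and 0.048 for RNF43 for estradiol in parental cells. Without single arrays, values ran over 0 for AXIN2 between lines in estradiol (-0.084 to 0.16) and for estradiol in parental cells (-0.091 to 0.15), WNT7A for estradiol in knockout cells (-0.35 to 0.38) and NKD2 in the difference of responses (-0.054 to 0.56). RNF43 did so between lines in estradiol (-0.10 to 0.056), for estradiol in knockout (-0.012 to 0.10) and parental cells (-0.095 to 0.065), and in the difference of responses (-0.0029 to 0.16).

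Over all genes, calls between untreated lines were 2152, against 3853 without the 2 arrays, 3689 with quantile normalization as well, 4432 with array weights, 3870 with the compared arrays alone, 402 at 0.01 and 428 to 2832 without single arrays. In estradiol they were 0, against 1924 and 2884 without the 2 arrays, the second with quantile normalization. For estradiol in knockout cells they were 763, against 1337, 1914, 271 at 0.01 and 319 to 1103 without single arrays. In parental cells they were 1376, against 2110 without the 2 arrays, 886 with quantile normalization, 3027 with array weights, 463 at 0.01 and 505 to 1707 without single arrays. For the difference of responses they were 1, against 146 and 235 without the 2 arrays and 0 to 12 under settings that kept all 12. A replicate block by number changed no call of the 4 genes (WNT7A between untreated lines, adjusted p = 0.00572). Of 18 same-numbered pairs, 6 had residuals correlated above 0.1 (-0.50 to 0.65). The extremes were between knockout and parental arrays with estradiol, at 0.62, -0.50 and 0.65 for numbers 1, 2 and 3. Means of these groups include the 2 libraries that went against their labels, so these correlations cannot decide whether numbers are pairs. The numbers were not taken as pairs.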
